A study of Mus musculus with 6 samples.

Results

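The genes examined here were 28 genes of cholesterol synthesis and sterol sensing, taken by symbol from a gene count matrix of regulatory T (Treg) cells. All 28 had a row among the 24421 genes of the matrix, and 27 passed the filter for testing, a level above 1 CPM (counts scaled to library size) in at least 3 libraries, as did 11658 genes in all. The gene below the filter was Idi1. CD4+YFP+ Treg cells were sorted from spleens of female C57BL/6 mice aged 8 to 11 weeks. The 3 control mice carried Foxp3Cre (WT) and the 3 others carried Foxp3Cre with both miR-142 alleles floxed, Foxp3Cre miR-142fl/fl (KO), and each library came from 1 mouse. Both groups express Cre fused to yellow fluorescent protein from the endogenous Foxp3 promoter, so the deletion is aimed at Foxp3-expressing cells. The KO mice develop a systemic autoimmune disease, so a cell's own loss of the miRNA and its inflamed surroundings cannot be told apart in this comparison.

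Cells make cholesterol from acetyl-CoA through mevalonate, farnesyl pyrophosphate, squalene and lanosterol. The genes of this route are switched on by SREBP proteins, membrane-bound transcription factors that Scap carries to the Golgi when sterols are scarce and that Insig proteins hold in the endoplasmic reticulum when sterols are plentiful. Oxysterols and sterol intermediates activate the liver X receptors (LXRs), which switch on the exporters Abca1 and Abcg1. In T cells, activation and growth draw on the SREBP route, and LXR signaling opposes it.

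miR-142 is a miRNA of blood cells whose hairpin gives a 3p and a 5p arm. Base pairing of its seed, bases 2 to 8, with a 3′ untranslated region (3′ UTR) lowers the level of a target mRNA. The mature sequences, from RefSeq on GRCm38.p6 (chr11:87756903-87756925 and chr11:87756867-87756887, plus strand), are shown with the seed in capitals because the matches described next are read against them.
mmu-miR-142a-3p: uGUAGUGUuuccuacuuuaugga
mmu-miR-142a-5p: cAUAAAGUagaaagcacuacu

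Among the 28 genes, 7 had at least 1 seed match of 7 bases in their longest annotated 3′ UTR. The matches searched were ACACTAC for the 3p seed, AACACTA for the 3p seed shifted by 1 base and ACTTTAT for the 5p seed, where the first pair overlap in sequence. In this order they occurred in 3, 2 and 4 of the 28 genes, beside 7.08%, 10.3% and 15.9% of 10781 tested genes with a 3′ UTR. Any of them occurred in 7 of the 28, beside 26% of the tested genes. The 7 genes were Srebf1, Insig2, Acat2, Hmgcs1, Fdft1, Stard4 and Abca1. Srebf1, Acat2, Hmgcs1, Fdft1 and Stard4 were not called different, with log2 fold changes (KO over WT) of 0.21, 0.23, -0.41, 0.05 and -0.31. The sites of the 2 genes of the 7 that were called different in KO Tregs are shown in mRNA sense, with the match in capitals. They lie in the 3′ UTRs of Abca1 (minus strand, matches at chr4:53033016-53033022, chr4:53031004-53031010 and chr4:53030861-53030867) and Insig2 (minus strand, chr1:121304525-121304531 and chr1:121304444-121304450).
Abca1, 3p: acaagatgggtACACTACaccttgagatc
Abca1, 5p: tcattccaagcACTTTATgctgtctgtaa
Abca1, 5p: tattgtgaataACTTTATatgacgtgttt
Insig2, 3p: tagtggtgaccACACTACtctatttatta
Insig2, 3p shifted: tcaaatttgtaAACACTAtaaaatcttta
A seed match is a match of letters and is no measurement of binding.

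As a check of the labels, Mir142b, the annotated RNA antisense to the miR-142 hairpin at the deleted locus, had 147, 101 and 105 counts in WT replicates 1, 2 and 3 and 7, 5 and 5 counts in KO replicates 1, 2 and 3. The Treg marker Foxp3 lay between 536 and 749 CPM in all 6 libraries. Total counts ranged from 13883069 to 24042994 per library, and 3 counts corresponded to between 0.123 and 0.227 CPM. KO replicate 1 stood apart in markers of other cells. Its 12 macrophage markers summed to 3072 CPM, against 83.4 in KO replicate 2, 19.2 in KO replicate 3 and 7.76 to 11.8 in the WT libraries. Its 9 neutrophil markers summed to 887 CPM against 4.65 or less in the other libraries, its 7 dendritic cell markers to 155 against 6.71 or less, and its 8 B cell markers to 286 against 41.3 or less. The 8 Treg and T cell markers summed to 5738 to 6423 CPM in WT libraries and to 7528, 8484 and 8512 in KO replicates 1, 2 and 3. Most of that rise was Il2ra, at a mean of 756 CPM in WT and 2578 CPM in KO Tregs. Foxp3 and Lat were also higher in every KO library. Cd4 (1021 and 876 CPM) and Cd3e (679 and 593 CPM) were lower in every KO library, so the sum is no measure of purity. The part of these other transcripts in the results below was not tested, and values without KO replicate 1 stand beside the results that it moves.

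Levels below are CPM normalized by the TMM method, fold changes are KO over WT, and genes were called at a false discovery rate (FDR) under 0.05 in edgeR's quasi-likelihood test over all 11658 genes. Across the 27 genes tested, 4 were called higher in KO Tregs, namely Insig2, Mvd, Abca1 and Abcg1, and 0 were called lower. The background was 11.6% of all tested genes called higher, 7.27% called lower and 18.8% called in either direction. The 4 calls were 14.8% of the 27 genes, which is near that background and is no result about the group. At an unadjusted p under 0.05 in edgeR's quasi-likelihood test, 6 of the 27 genes were higher and 3 lower. Over all 11658 tested genes these counts were 2299 and 1761. DESeq2 called 5 of the 27 higher and 1 lower, beside 1665 and 1198 of the 11658. The median log2 fold change of the 27 genes was 0.0036, beside 0.016 for all tested genes. The KO libraries all lay above the WT libraries for 5 genes (18.5%, background 22.2%) and all below for 3 (11.1%, background 18.8%). An exact two-sided permutation test of 3 mice against 3 cannot go below p = 0.1, so the call for each gene came from edgeR's model of all tested genes.

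Leaving out KO replicate 1 gave 5 genes called higher and 2 lower among the 27. The added calls were Sc5d, higher, and Hmgcs1 and Dhcr7, lower. In that fit of 11429 genes the background was 9.69% higher and 7.59% lower, and the median log2 fold change was -0.13 for the cholesterol genes and -0.016 for all genes.

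**Figure D1:**
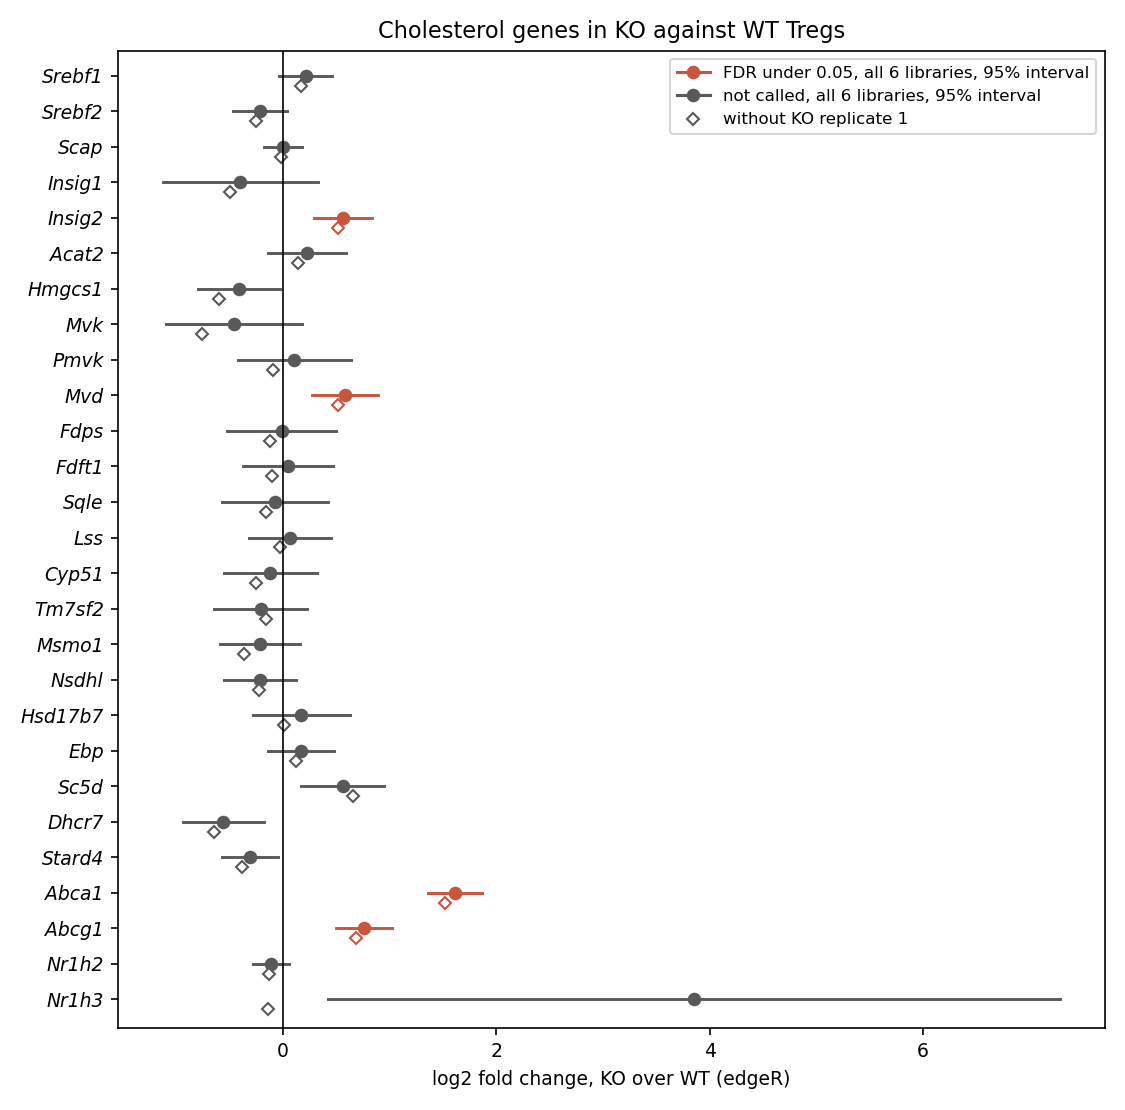
The log2 fold change of each tested gene (horizontal axis, KO over WT, edgeR) is drawn as a circle with its 95% interval for all 6 libraries, in red where the FDR was under 0.05, and as an open diamond for the fit without KO replicate 1. Abca1 at 1.61 and Abcg1 at 0.76 keep their place without that library, whereas Nr1h3 moves from 3.86 to -0.14.

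Per kilobase of exon, levels in WT Tregs spanned a wide range. In WT Tregs Srebf2 had the highest level at 45.2 CPM per kb, followed by Nr1h2 at 34.9, Abcg1 at 23.1 and Srebf1 at 22.4. Among the enzymes, Ebp was highest at 19.8 CPM per kb, followed by Mvd at 11.96 and Sc5d at 11.1. Tm7sf2 at 1.91, Hsd17b7 at 2.11 and Lss at 2.15 CPM per kb were lowest among the tested enzymes. Idi1, which isomerizes isopentenyl pyrophosphate, lay between 6 and 27 counts per library and at 0.259 CPM per kb in WT Tregs. These levels divide by all annotated exon bases of a gene, including exons that Tregs may not use.

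**Figure D2:**
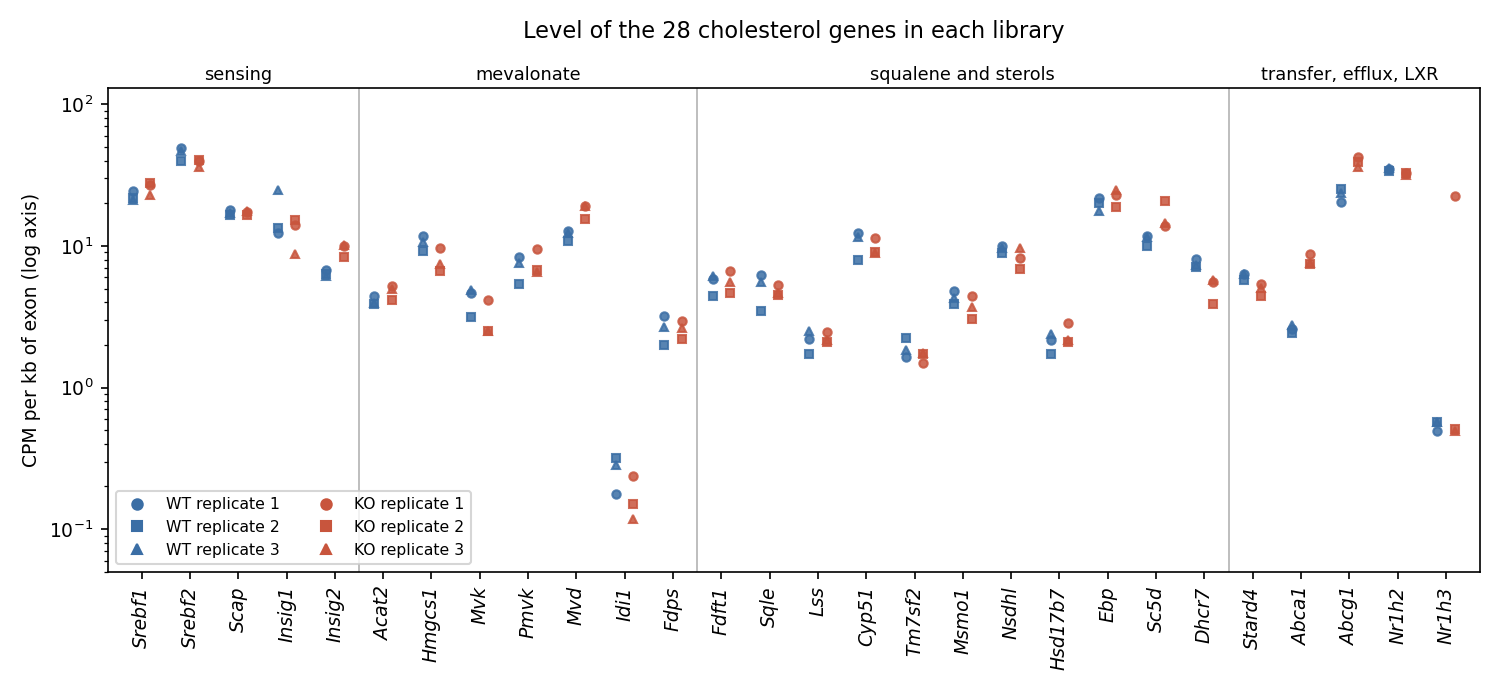
Each of the 28 genes (horizontal axis, by role) is plotted at its level in each library (vertical axis, CPM per kb of exon, log axis), with WT libraries in blue, KO libraries in red and the shape giving the replicate. Abca1 and Abcg1 separate by genotype, the enzymes mostly interleave, and Nr1h3 is high in KO replicate 1 alone.

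Among the sensing genes, Insig2 rose in KO Tregs, and the other 4 did not pass the test. Insig2, which anchors Scap in the endoplasmic reticulum, lies at chr1:121304353-121332589 (GRCm38). Its level was 23.7, 22.2 and 21.4 CPM in WT replicates 1, 2 and 3 and 34.6, 29.2 and 35.4 CPM in KO replicates 1, 2 and 3. All KO libraries lay above all WT libraries. The fold change was 1.48 (log2 0.56, SE 0.12, FDR 0.018 by edgeR's quasi-likelihood test, n = 3 per group). Without KO replicate 1 the log2 value was 0.51 and the FDR 0.036. The FDR lay above 0.05, at 0.056, 0.087, 0.083 and 0.057, when WT replicate 1, WT replicate 2, WT replicate 3 or KO replicate 3 was left out.

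Insig1, the Insig gene that SREBPs themselves switch on, varied more within groups than between them. Its level was 37.9, 41.6 and 76.2 CPM in WT replicates 1, 2 and 3 and 43.5, 47.4 and 27.2 CPM in the KO libraries. WT replicate 3 was the highest and KO replicate 3 the lowest, and the groups overlapped. The log2 fold change was -0.40 with a 95% interval from -1.12 to 0.33. The interval includes 0, and the values are compatible with any change within these bounds.

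Srebf1 and Srebf2 encode the SREBP precursors, of which Srebf2 acts mainly on cholesterol genes and Srebf1 mainly on fatty acid genes. Srebf1 was 126 ± 10.1 CPM in WT and 146 ± 15.0 CPM in KO Tregs (SD, n = 3 per group), and Srebf2 was 325 ± 34.6 and 279.6 ± 19.4 CPM. Their log2 fold changes were 0.21 (95% interval -0.04 to 0.46) and -0.21 (-0.47 to 0.04), and their groups overlapped. Scap was 128 ± 4.98 and 129 ± 4.25 CPM, the log2 fold change nearest 0 among the 27 genes, with an interval from -0.17 to 0.18.

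Of the 18 synthesis enzymes 17 were tested, 1 (5.88%, background 11.6%) was called higher and 0 (background 7.27%) were called lower by edgeR's quasi-likelihood test, and the median log2 fold change was -0.013. At an unadjusted p under 0.05 in the same test, 2 of the 17 enzymes were higher and 2 lower. Over all 11658 tested genes these counts were 2299 and 1761. DESeq2 called 2 enzymes higher and 1 lower, beside 1665 and 1198 of the 11658. For 15 of the 16 enzymes that were not called, the 95% interval lay within a 2-fold change in either direction. The exception was Mvk, whose interval reached -1.10. Without KO replicate 1, 2 enzymes were called higher and 2 lower by the same test (background 9.69% and 7.59%). In that fit the median log2 fold change was -0.13 for the enzymes and -0.016 for all tested genes. The summed level of the 18 enzymes was 498, 396 and 470 CPM in WT replicates 1, 2 and 3 and 493, 429 and 455 CPM in KO replicates 1, 2 and 3, so the groups overlapped.

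The enzymes also varied between libraries of the same group. Replicate 2 had the lowest level of its group for 15 of 17 enzymes among WT libraries, beside 33.0% of all tested genes, and for 12 of 17 among KO libraries, beside 38.4% of all tested genes. Replicate 1 had the highest level of its group for 12 of 17 enzymes in each genotype, beside 42.3% of all tested genes in WT and 34.3% in KO Tregs. These counts are a description, without a test. The labels give no litter, day or batch for these numbers, and the spread between mice entered the error of every enzyme.

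The enzymes from acetyl-CoA to farnesyl pyrophosphate held the only enzyme call. Mvd, which decarboxylates mevalonate pyrophosphate to isopentenyl pyrophosphate, lies at chr8:122433601-122443422 (GRCm38). Its level was 23.8, 20.0 and 22.9 CPM in WT replicates 1, 2 and 3 and 35.8, 28.6 and 35.4 CPM in KO replicates 1, 2 and 3. The lowest KO library lay above the highest WT library. The fold change was 1.499 (log2 0.58, SE 0.13, FDR 0.024 by edgeR's quasi-likelihood test, n = 3 per group), and without KO replicate 1 the log2 value was 0.51 with an FDR of 0.046. Leaving out WT replicate 1, WT replicate 2, WT replicate 3 or KO replicate 3 gave an FDR of 0.064, 0.11, 0.082 or 0.070.

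Hmgcs1, which makes HMG-CoA and is a classic SREBP target, pointed the other way. Its level was 53.9, 42.3 and 49.3 CPM in WT replicates 1, 2 and 3 and 44.6, 30.4 and 34.3 CPM in KO replicates 1, 2 and 3. KO replicate 1 overlapped the WT range and the other KO libraries lay below it. The log2 fold change was -0.41 (SE 0.16, FDR 0.12), and without KO replicate 1 it was -0.60 with an FDR of 0.025 by edgeR's quasi-likelihood test. Mvk and Pmvk, the kinases that phosphorylate mevalonate in turn, had log2 fold changes of -0.46 and 0.11, with overlapping groups. Without KO replicate 1 these were -0.76 (FDR 0.062) and -0.097 (FDR 0.79) by edgeR's quasi-likelihood test. Acat2, the cytosolic thiolase that starts the route, and Fdps, which makes farnesyl pyrophosphate, had 0.23 and -0.01. None of these 4 passed the test in edgeR or in DESeq2.

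In the branch from squalene to cholesterol, 0 of 11 enzymes were called by edgeR's quasi-likelihood test (background 18.8%). At an unadjusted p under 0.05 in that test, 1 was higher and 1 lower, beside 2299 and 1761 of all 11658 tested genes. The late enzymes Sc5d and Dhcr7 lay just outside the FDR threshold in opposite directions. They act one after the other, Sc5d making 7-dehydrocholesterol and Dhcr7 reducing it to cholesterol. Sc5d was 57.2, 48.8 and 56.0 CPM in WT replicates 1, 2 and 3 and 67.4, 101 and 70.3 CPM in KO replicates 1, 2 and 3, with KO replicate 2 the highest and no overlap between groups. Its log2 fold change was 0.56 (SE 0.17, FDR 0.056). Dhcr7 was 47.1, 41.5 and 42.4 CPM in WT replicates 1, 2 and 3 and 32.6, 22.6 and 33.7 CPM in KO replicates 1, 2 and 3, with KO replicate 2 the lowest and all KO libraries below all WT libraries. Its log2 fold change was -0.56 (SE 0.16, FDR 0.052).

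Both genes crossed the threshold under some alternatives. In DESeq2 the adjusted p was 0.014 for Sc5d and 0.013 for Dhcr7. Without KO replicate 1 the FDR in edgeR's quasi-likelihood test was 0.027 for Sc5d and 0.042 for Dhcr7, with log2 values of 0.65 and -0.65. Sc5d without KO replicate 2, its highest library, had a log2 value of 0.36.

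The other 9 enzymes of this branch had log2 fold changes between -0.22 and 0.17. Fdft1 and Sqle, which form squalene and its epoxide, had 0.05 and -0.07. Lss, which closes the ring to lanosterol, had 0.07, and Cyp51, the lanosterol demethylase, had -0.12. The enzymes that act after Cyp51 and before Sc5d had -0.21 for Tm7sf2, -0.22 for Msmo1, -0.21 for Nsdhl, 0.17 for Hsd17b7 and 0.17 for Ebp. The lowest FDR of these 9 was 0.331, and their groups overlapped. Without KO replicate 1 the lowest FDR was 0.13 by edgeR's quasi-likelihood test, for Msmo1 at a log2 fold change of -0.37. Sqle, the rate-limiting epoxidase, was 34.3, 19.3 and 31.0 CPM in WT replicates 1, 2 and 3, a wider range than the 25.1 to 29.3 CPM of the KO libraries.

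Some of these genes share sequence with other genes, which bears on counting. Of the 51-base words of the longest transcript, the read length of the libraries, 45.7% of Acat2 words also occur in Acat3 or Tcp1, 30.5% of Idi1 words and 30.5% of Fdft1 words occur elsewhere, and 13.5% for Hmgcs1, 13% for Scap and 11.6% for Fdps. The values of these 6 genes are therefore uncertain. The 4 called genes shared 0% of their words with another gene.

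The cholesterol exporters showed the largest called differences of the 27 genes. Abca1, which loads cholesterol and phospholipid onto lipid-poor apolipoproteins, lies at chr4:53030787-53159895 (GRCm38, minus strand). Its level was 27.0, 25.1 and 28.8 CPM in WT replicates 1, 2 and 3 and 91.4, 77.3 and 78.8 CPM in KO replicates 1, 2 and 3. The KO libraries were close to each other and far above every WT library. The fold change was 3.06 (log2 1.61, SE 0.11, FDR 0.000527 by edgeR's quasi-likelihood test, n = 3 per group). Without KO replicate 1 the fold change was 2.86 with an FDR of 0.000183.

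Abcg1, which exports cholesterol to mature lipoproteins, lies at chr17:31057675-31117988 (GRCm38). Its level was 148, 185 and 173 CPM in WT replicates 1, 2 and 3 and 309, 287 and 263 CPM in KO replicates 1, 2 and 3. Every KO library again lay above every WT library. The fold change was 1.70 (log2 0.76, SE 0.11, FDR 0.0054 by edgeR's quasi-likelihood test, n = 3 per group), and without KO replicate 1 it was 1.61 with an FDR of 0.0073. Macrophages also express both exporters. The macrophage markers summed to 3072, 83.4 and 19.2 CPM in KO replicates 1, 2 and 3. Of these sums, Vcam1 alone gave 406, 35.1 and 11.2 CPM. It was itself called higher in KO (FDR 0.025 by edgeR's quasi-likelihood test). The part of macrophages in the levels of the exporters was not tested.

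Neither LXR gene was called. Nr1h2 encodes LXRβ, the widely expressed form, and was 117 ± 3.21 CPM in WT and 108 ± 2.02 CPM in KO Tregs (SD, n = 3 per group). All KO libraries lay below the WT libraries, but the log2 fold change of -0.11 (95% interval -0.28 to 0.06, FDR 0.324) did not pass the test. Nr1h3 encodes LXRα, the form of macrophages and liver, and was 1.23, 1.43 and 1.44 CPM in WT replicates 1, 2 and 3 and 57.0, 1.29 and 1.23 CPM in KO replicates 1, 2 and 3. The high value came from KO replicate 1 alone, the library with the high macrophage markers. The log2 fold change was 3.86 with a 95% interval from 0.43 to 7.29 and an FDR of 0.108, and without KO replicate 1 it was -0.14 with an FDR of 0.786 by edgeR's quasi-likelihood test.

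Stard4, a soluble sterol carrier and SREBP target, was 35.4, 32.1 and 35.3 CPM in WT replicates 1, 2 and 3 and 29.9, 24.8 and 28.1 CPM in KO replicates 1, 2 and 3. All KO libraries lay below all WT libraries. The log2 fold change was -0.31 (SE 0.11, FDR 0.094), and without KO replicate 1 it was -0.39 with an FDR of 0.073 by edgeR's quasi-likelihood test.

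**Figure D3:**
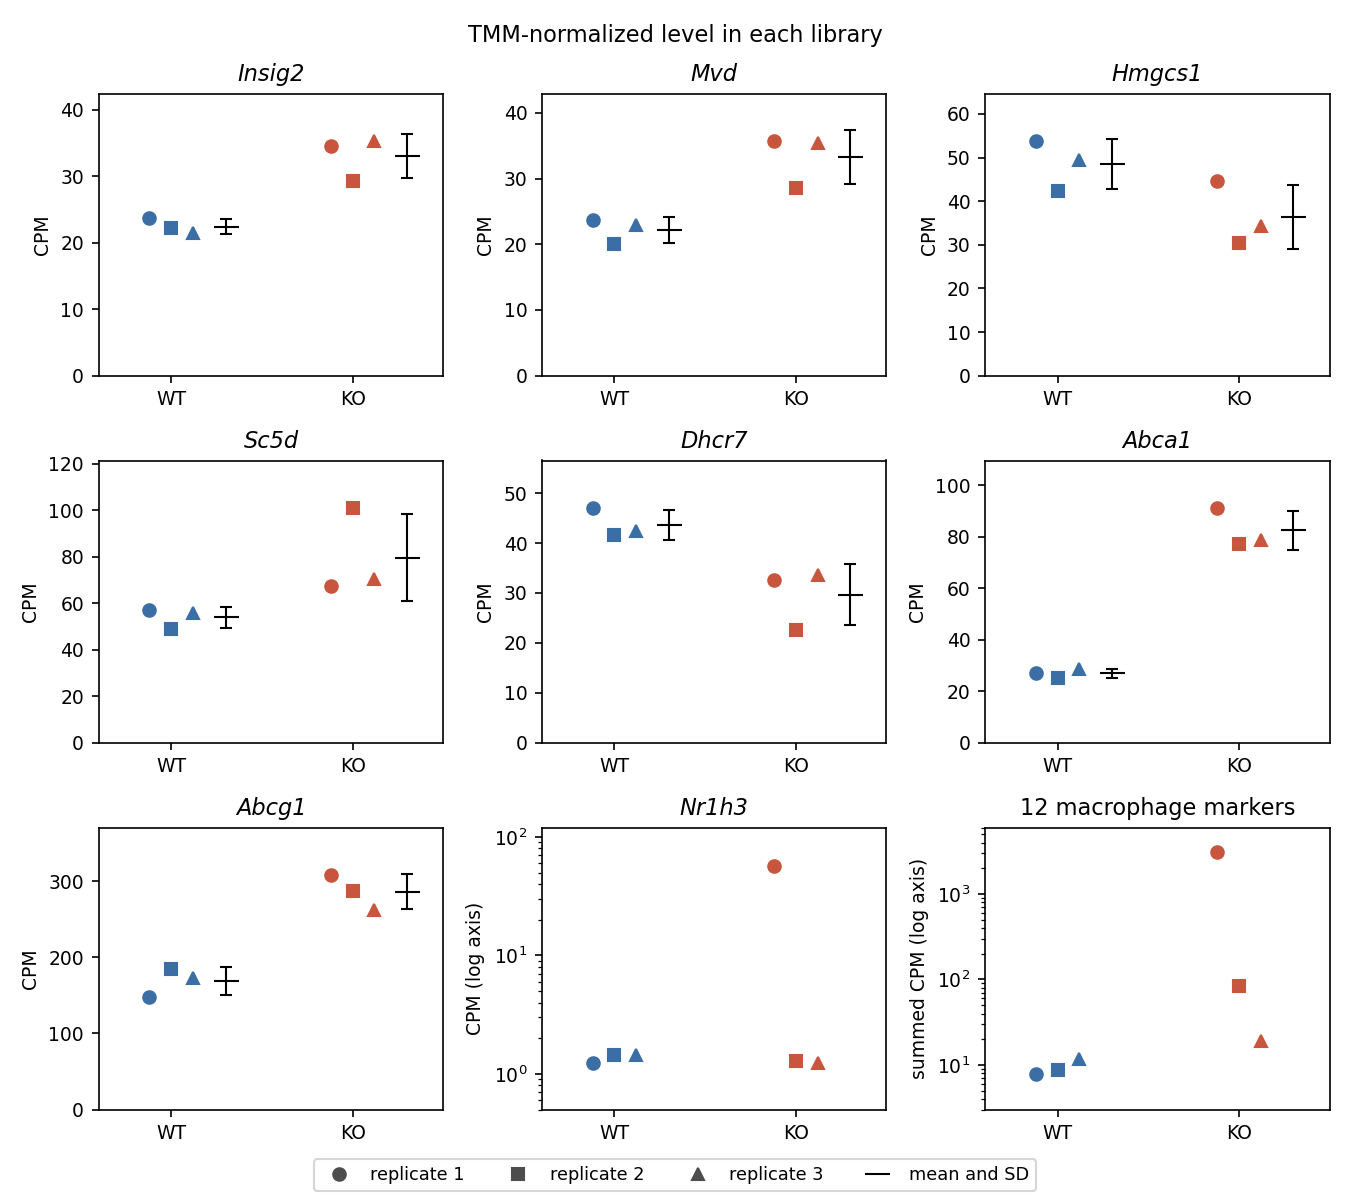
The panels plot the TMM-normalized level (vertical axis, CPM) of 8 genes in each WT (blue) and KO (red) library, with shapes for replicates and bars for mean and SD (n = 3), and the summed CPM of 12 macrophage markers. Nr1h3 and the marker sum are on log axes without bars. Insig2, Mvd, Abca1 and Abcg1 are higher in every KO library, and Nr1h3 (57.0 CPM) and the marker sum (3072 CPM) are highest in KO replicate 1.

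Promoters were compared because the 28 genes answer to known factors. RefSeq windows from 250 bases before to 50 bases after a start were found for 23 of the 28 genes, among 32851 windows of all genes. The letters searched on both strands were TCACNCCAC for the sterol element bound by SREBP, CCAAT for the box bound by NF-Y, GGGCGG for the box bound by Sp1, and a pair of GGTNA words separated by 5 bases for the element bound by LXR with its RXR partner. The GGTNA pair reads TNACC where it lies on the other strand, and none of these words contains another. CCAAT occurred in 18 of 23 genes (78.3%, against 43% of tested genes) and in 14 of 15 enzymes. GGGCGG occurred in 20 of 23 genes (87%, against 69.1% of tested genes).

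The sterol element word was found in 1 of 23 genes, Hmgcs1 (4.35%, against 1.34% of tested genes). Only this word was searched, so a sterol element spelled otherwise was not counted. The GGTNA pair was found in Abca1 and in 1 of the starts of Srebf1, 2 of 23 genes (8.7%, against 0.537% of tested genes). These 3 stretches are shown on GRCm38.p6 in the sense of the gene, with the match in capitals. They lie at chr13:119690189-119690247 for Hmgcs1 (plus strand), chr4:53159923-53159987 for Abca1 (minus strand) and chr11:60210614-60210678 for Srebf1 (minus strand).
Hmgcs1: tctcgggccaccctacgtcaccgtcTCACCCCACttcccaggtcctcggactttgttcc
Abca1: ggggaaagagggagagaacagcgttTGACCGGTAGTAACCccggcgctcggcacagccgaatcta
Srebf1: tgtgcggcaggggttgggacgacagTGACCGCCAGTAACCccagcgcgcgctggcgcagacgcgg
Of the 3 genes with these elements, Abca1 rose 3.06-fold, whereas Srebf1 and Hmgcs1 had fold changes of 1.16 and 0.752 that did not pass the test. A match of letters is a description of the window and no measurement of binding. No window was found for Fdps, Fdft1, Sqle, Stard4 and Abcg1.

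The 6 lists of neighboring lipid genes were read for comparison. Of their 60 tested genes, 7 were called higher and 3 lower, 16.7% in all, beside the background of 18.8%. DESeq2 called 12 higher and 6 lower (background 24.6%), and with library-size scaling 4 were called higher and 6 lower (background 19.4%), so the split turned. Only Scd2 and Fntb kept an FDR under 0.05 by edgeR's quasi-likelihood test when each library was left out in turn. Without WT replicate 2, the FDR of the other 8 lay between 0.054 and 0.168.

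**Figure D4:**
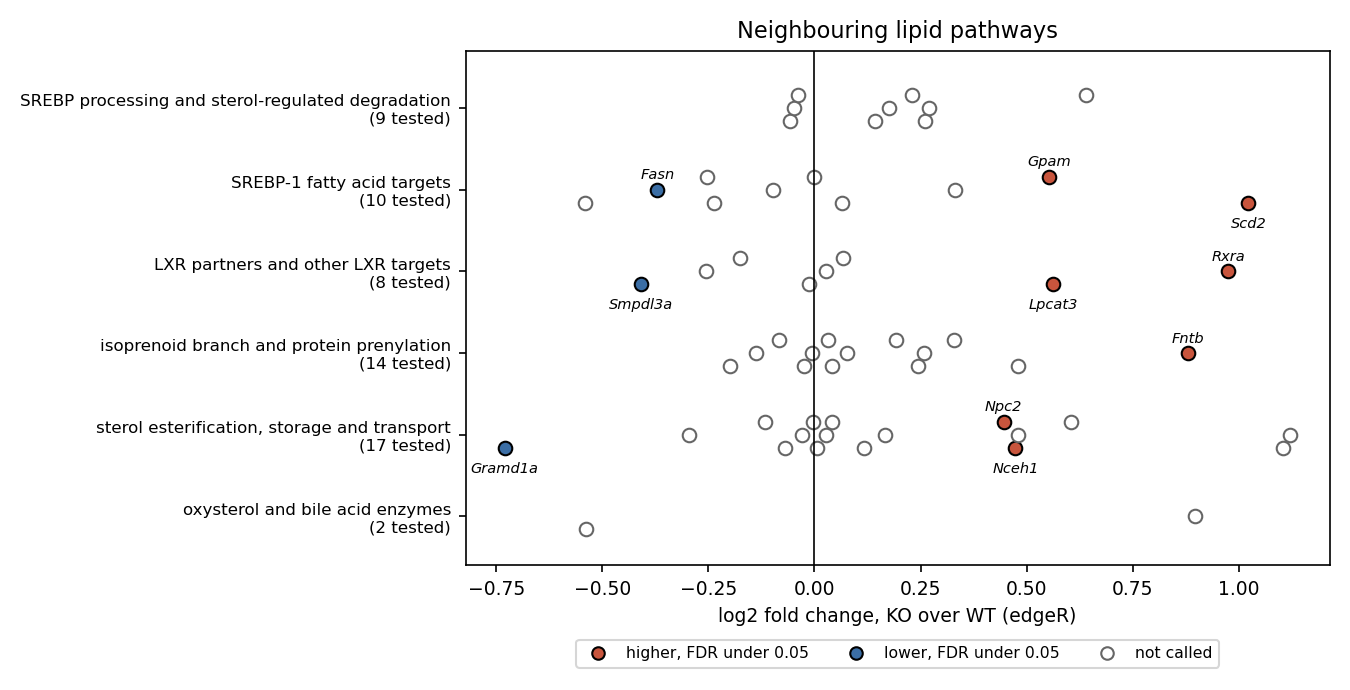
Each tested gene of 6 neighboring pathways is a point at its log2 fold change (horizontal axis, KO over WT, edgeR), filled red where called higher, blue where called lower and open where not called. Scd2 (1.02), Rxra (0.98) and Fntb (0.88) lie farthest to the right among called genes and Gramd1a (-0.73) farthest to the left.

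Of 9 genes that process SREBPs or degrade sterol-regulated proteins, 0 were called by edgeR's quasi-likelihood test (background 18.8%). DESeq2 called 1 higher and 0 lower (background 24.6% in either direction). At an unadjusted p under 0.05 in edgeR's test, 2 were higher and 0 lower, beside 2299 and 1761 of all 11658 tested genes. The median log2 fold change of the 9 genes was 0.18, beside 0.016 for all tested genes.

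Of 10 tested fatty acid genes that SREBP-1 drives, 2 rose and 1 fell (30% called, background 18.8%). DESeq2 called 2 higher and 2 lower (background 24.6% in either direction). Scd2, a desaturase that makes monounsaturated fatty acids, was 157, 126 and 149 CPM in WT replicates 1, 2 and 3 and 296, 229 and 355 CPM in KO replicates 1, 2 and 3. Its log2 fold change was 1.02 (SE 0.17, FDR 0.0084 by edgeR's quasi-likelihood test, n = 3 per group). Every KO library of Scd2 lay above the WT libraries. Gpam, which starts glycerolipid synthesis, had a log2 fold change of 0.55 (FDR 0.046). Fasn, the fatty acid synthase, was 292 ± 5.9 CPM in WT and 226 ± 20.1 CPM in KO Tregs and fell by 0.37 on the log2 scale (FDR 0.032).

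Of 8 tested LXR partners and targets other than the exporters, 2 rose and 1 fell (37.5% called, background 18.8%). The other 5 were not called by edgeR's quasi-likelihood test. Among these, the LXR targets Mylip and Arl4c had log2 fold changes of 0.028 (FDR 0.904) and -0.012 (FDR 0.952). Rxra, which pairs with LXRs on DNA, was 49.8, 41.4 and 45.4 CPM in WT replicates 1, 2 and 3 and 119, 77.7 and 72.1 CPM in KO replicates 1, 2 and 3. All KO libraries were higher, and KO replicate 1 was the highest. For Rxra the log2 fold change was 0.98 (SE 0.19, FDR 0.016 by edgeR's quasi-likelihood test, n = 3 per group), and without KO replicate 1 it was 0.70 with an FDR of 0.0055. Lpcat3, which remodels phospholipids, had a log2 fold change of 0.56 (FDR 0.041), with an FDR of 0.064 without KO replicate 1. Smpdl3a, a secreted phosphodiesterase, fell by 0.41 on the log2 scale (FDR 0.021).

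Of 14 genes of the isoprenoid branch and protein prenylation, 1 was called higher and 0 lower by edgeR's quasi-likelihood test (7.14%, background 18.8%). At an unadjusted p under 0.05 in that test, 2 were higher and 0 lower, beside 2299 and 1761 of all 11658 tested genes. Fntb, the beta subunit of farnesyltransferase, was 22.2, 23.9 and 24.7 CPM in WT replicates 1, 2 and 3 and 40.1, 45.3 and 45.0 CPM in KO replicates 1, 2 and 3. The groups were far apart and tight, and the log2 fold change of Fntb was 0.88 (SE 0.10, FDR 0.0026 by edgeR's quasi-likelihood test, n = 3 per group).

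Of 17 tested genes of sterol esterification, storage and transport, 2 rose and 1 fell (17.6% called, background 18.8%). DESeq2 called 6 higher and 2 lower (background 24.6% in either direction). Npc2, which hands cholesterol out of lysosomes, was 226 ± 6.39 CPM in WT and 308 ± 24.5 CPM in KO Tregs, a log2 fold change of 0.45 (FDR 0.016). Nceh1, a cholesteryl ester hydrolase, had 0.47 (FDR 0.045), and without KO replicate 1 it had 0.31 with an FDR of 0.095. Gramd1a, which carries plasma membrane cholesterol to the endoplasmic reticulum, was 409, 513 and 451 CPM in WT replicates 1, 2 and 3 and 251, 258 and 319 CPM in KO replicates 1, 2 and 3, with no overlap, and fell by 0.73 on the log2 scale (SE 0.13, FDR 0.011 by edgeR's quasi-likelihood test, n = 3 per group). Of the 2 tested oxysterol genes, 0 were called by edgeR's quasi-likelihood test (background 18.8%), and DESeq2 called 1 lower (background 24.6% in either direction). At an unadjusted p under 0.05 in edgeR's test, 1 was higher and 1 lower, beside 2299 and 1761 of all 11658 tested genes.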

How the data were processed

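The sources name HISAT for alignment of the 51-base single-end reads of 6 libraries, mm10 as the genome, and unstranded featureCounts for the gene counts. The labels also name CASAVA and edgeR. Versions and the annotation are not given in the sources used here. The authors deposited raw counts per gene, whole numbers without normalization, and all 6 columns were used. Without strand, reads of overlapping antisense genes cannot be told apart.

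The test was run in edgeR 4.0.16 (R 4.3.3) on genes above 1 CPM in 3 or more libraries (TMM, quasi-likelihood F test, Benjamini-Hochberg FDR under 0.05 over all genes tested). The labels call the libraries biological replicates, with 1 mouse each. The steps were tested on simulated counts. Positions, 3′ UTRs and exon lengths came from GENCODE vM21 (GRCm38), and miRNA and promoter sequences from RefSeq (GRCm38.p6).

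The members and lists were chosen with earlier results of these data known, and some genes of the pathway are not reported here. All 28 genes are named, with genes of the 6 neighboring lists at an FDR under 0.05, at most 4 per direction and list. Ufd1 was read under its synonym Ufd1l, and Ly6g was not matched. Alternatives were RLE and library-size scaling, DESeq2 1.42.0 on the same genes, the likelihood ratio and exact tests, all 3 edgeR tests together, an FDR under 0.01, other filters, a replicate block and leaving out each library.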

Additional observations from a re-analysis of the deposited data

How the results depend on the processing

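Abca1 and Abcg1 were called higher in KO Tregs under every alternative run, with log2 fold changes between 1.52 and 1.67 and between 0.65 and 0.83. The count of cholesterol genes called higher was 4, became 5 with DESeq2, 6 with the likelihood ratio test and the exact test and 2 at an FDR under 0.01, and ranged from 2 to 5 when each library was left out in turn. The count called lower was 0 and became 1 with library-size scaling, DESeq2, the likelihood ratio test and the exact test, each time Dhcr7, and ranged from 0 to 2 over the left-out libraries. For the enzymes, the count called higher was 1, became 2 with DESeq2, the likelihood ratio test and the exact test and 0 at an FDR under 0.01, and ranged from 0 to 2. The count of enzymes called lower was 0, became 1 with the same 4 settings as for all members, and ranged from 0 to 2. Over all tested genes the calls were 1350 higher and 847 lower, and 1665 and 1198 with DESeq2. They were 1444 and 823 with the likelihood ratio test and 1419 and 816 with the exact test. The median log2 fold change of the cholesterol genes ranged from -0.13, without KO replicate 1, to 0.10. Nr1h3 passed the likelihood ratio and exact tests (FDR 0.026 and 0.034). The cause of these changes was not tested.

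The genes whose direction reversed were not called in edgeR's quasi-likelihood test, and apart from Nr1h3 their log2 values lay near 0. Scap was -0.0057 with RLE scaling, -0.074 with library-size scaling, -0.0052 with DESeq2 and -0.017 without the filter, and Fdft1 and Lss were -0.030 and -0.010 with library-size scaling. Over the left-out libraries Scap ranged from -0.031 to 0.037, Pmvk from -0.097 to 0.21, Fdps from -0.18 to 0.13, Fdft1 from -0.10 to 0.17, Sqle from -0.29 to 0.064, Lss from -0.076 to 0.19 and Nr1h3 from -0.14 to 4.41. Library-size scaling moved the median of all genes from 0.016 to -0.061 and the split of all calls from 1350 higher and 847 lower to 1064 and 1201. At an FDR under 0.01 the split was 490 and 196.

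With the replicate block, the calls among the 28 genes were the same 4, and 6 of the 10 calls among neighboring genes were kept. Fasn, Gpam, Lpcat3 and Nceh1 had an FDR of 0.063, 0.083, 0.058 and 0.073, and 2 other genes were added. Library-size scaling and leaving out the filter also ended the calls of Gpam, Lpcat3 and Nceh1. Same-numbered WT and KO libraries had correlations of 0.080, -0.0056 and -0.20 between their deviations from group means over all tested genes. Differently numbered libraries had values between -0.18 and 0.21. With 3 libraries per group, these correlations cannot decide whether the numbers pair the samples. Depth limits Idi1 and Nr1h3, which had few counts in most libraries.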

Other observations

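Some lipid genes outside the 28 followed KO replicate 1, the library with the macrophage markers, and are named here after their values were seen. Pltp, a phospholipid transfer protein and LXR target of macrophages, was 34.7 CPM in KO replicate 1 and 0.498 CPM or less in the other libraries. Cyp27a1, which makes an oxysterol, was 12.3 CPM there and 0.0616 CPM or less elsewhere. Scarb1, a lipoprotein receptor, was 54.8 CPM there and between 11.6 and 19.5 CPM elsewhere.

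Lipa, the lysosomal acid lipase that frees cholesterol from its esters, was 109, 116 and 112 CPM in WT replicates 1, 2 and 3 and 175, 73.4 and 73.2 CPM in KO replicates 1, 2 and 3. KO replicate 1 lay above and the other KO libraries below the WT range. With all 6 libraries the log2 fold change was -0.07 (FDR 0.903), and without KO replicate 1 it was -0.64 with an FDR of 0.0032 by edgeR's quasi-likelihood test. Fads1, a fatty acid desaturase, went the same way, with -0.54 (FDR 0.230) and, without KO replicate 1, -0.999 (FDR 0.0038). Its level was 21.0, 19.8 and 21.2 CPM in WT replicates 1, 2 and 3 and 21.6, 9.61 and 11.3 CPM in KO replicates 1, 2 and 3. The part of other cells in these values was not tested.

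Soat2, which esterifies cholesterol, was low but did not overlap between groups, at 3.63, 1.72 and 2.32 CPM in WT replicates 1, 2 and 3 and 7.33, 5.15 and 4.11 CPM in KO replicates 1, 2 and 3, its log2 fold change being 1.12 (SE 0.35, FDR 0.065 by edgeR's quasi-likelihood test, n = 3 per group).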
